A study of Mus musculus with 16 samples.

Results

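The type I interferon-stimulated antiviral genes described here are 35 genes named by symbol: 3 IFIT genes, 5 OAS genes, 6 other antiviral effectors, 8 genes of the ISG15, ubiquitin and ADP-ribose systems, 4 sensors of nucleic acid, 4 Schlafen genes and 5 other genes induced by interferon. All 35 were found among the 24028 genes of the count table, and all 35 were among the 17414 genes with enough counts to be tested. They were followed in CD8 T cells sorted from tumours of BALB/c mice that had received TS/A cells, a murine mammary adenocarcinoma line, in the second mammary pad. The 4 groups, of 4 libraries each, were entinostat at day 10, vehicle at day 10, entinostat at day 17 and vehicle at day 17, the days being counted from the injection of tumour cells. Entinostat, which inhibits the class I histone deacetylases, was given at 20 mg/kg daily from day 7, so the mice had been dosed for about 3 days at the earlier time and about 10 days at the later one. All groups carried the same tumour, and the sort kept live cells positive for CD45.2 and CD8 and negative for CD4. The labels give no age, and do not say whether each library came from a separate mouse, so the p-values below measure the spread between these libraries, part of which may be technical.

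Type I interferons bind the receptor made of IFNAR1 and IFNAR2, whose kinases TYK2 and JAK1 phosphorylate STAT2. STAT2 acts with IRF9 in a complex, ISGF3, that binds the interferon-stimulated response element (ISRE) in the promoters of many genes induced by interferon. IRF7, itself induced by interferon, drives further interferon production and is abundant in plasmacytoid dendritic cells, the main source of type I interferon in blood and lymphoid tissue.

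Expression is given as CPM, the count of a gene scaled to a common library total after edgeR's TMM factors. Total counts ran from 554593 in replicate 3 of entinostat at day 17 to 6975904 in replicate 1 of vehicle at day 17, and the members together took between 1085 and 25380 of them per library. Of the 7 T cell marker genes found (CD3 chains, CD8 chains, Cd2 and Lck), none passed the test between entinostat and vehicle at either day by edgeR's adjusted p. At an unadjusted p under 0.05, 1 of the 7 was lower in the entinostat libraries at day 10 and 6 were higher at day 17. In bulk samples such as these, fewer cells of a type and less RNA per cell cannot be told apart.

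The element through which many genes are known to be induced by interferon was sought by its core. The search covered the window from 250 bases before to 50 after the RefSeq transcription start (GRCm38.p6). The core was taken as GAAA, then 2 bases of any kind, then GAAA, on either strand, so that on the other strand it reads as TTTC, 2 bases and TTTC. Of the 26 members with a window in the RefSeq table, 12 held the core, or 46.2%, against 3.94% of the 17965 genes with a window. The 60 bases around it are shown for 7 members whose levels are described below, read 5′ to 3′ on the strand of the gene, with the core in capitals.
Ifit1, chr19:34640769-34640828, plus strand: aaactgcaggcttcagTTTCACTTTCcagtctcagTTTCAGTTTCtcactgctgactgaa
Ifit3, chr19:34583365-34583424, plus strand: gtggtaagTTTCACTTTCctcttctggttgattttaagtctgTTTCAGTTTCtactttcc
Oas3, chr5:120777700-120777759, minus strand: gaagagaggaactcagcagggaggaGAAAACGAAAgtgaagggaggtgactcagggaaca
Rsad2, chr12:26456538-26456597, minus strand: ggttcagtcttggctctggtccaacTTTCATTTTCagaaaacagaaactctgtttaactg
Isg15, chr4:156200856-156200915, minus strand: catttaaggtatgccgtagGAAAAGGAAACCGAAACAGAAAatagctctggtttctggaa
Slfn5, chr11:82951922-82951981, plus strand: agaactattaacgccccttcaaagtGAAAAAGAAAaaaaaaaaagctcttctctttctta
Slfn8, chr11:83020824-83020883, minus strand: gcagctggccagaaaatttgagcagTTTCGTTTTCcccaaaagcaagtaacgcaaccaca

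Ifit1 and Ifit3 each held the core at 2 places, and Isg15 held it at 3 overlapping places within 1 run. The other members with the core were Oas1a, Eif2ak2, Trim30a, Ifih1 and Ddx58. The core of gamma-activated sites, TTCNNNGAA, which reads the same on both strands, lay in the windows of 5 of the 26 members, or 19.2%, against 9.17% of genes. These were Ifit2, Oas1a, Isg20, Eif2ak2 and Ifi35. Between entinostat and vehicle at day 10, the median log2 fold change was -0.85 over the 12 members with the ISRE core in this window and -0.84 over the 14 without it. At day 17 the medians were -1.45 over the 12 and -0.96 over the 14. The range over the 12 at day 17 was -2.77 to -0.21, and that over the 14 was -3.13 to -0.46, so the ranges overlapped.

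The members were lower in the entinostat libraries at both days. At day 10, 27 of 35 were lower and none was higher by edgeR's quasi-likelihood test at an adjusted p of 0.05, where 6.93% of all tested genes were lower and 7.63% were higher. At day 17, 32 of 35 were lower and none was higher, where 13.0% of all tested genes were lower and 5.29% were higher. At an unadjusted p under 0.05 the number higher was 0 at both days as well, and DESeq2 and limma-voom also called 0 higher. The median log2 fold change of the members was -0.83 at day 10 and -1.24 at day 17, against medians of 0.06 and -0.01 over all tested genes. Over the 9772 genes with a mean of at least 16 CPM, a range that holds most members, those medians were -0.17 and -0.22.

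The entinostat and vehicle libraries did not overlap, with every entinostat library lower, for 27 members at day 10 (12.4% of all tested genes) and for 31 at day 17 (13.6%). No member had every entinostat library above every vehicle library, as 7.81% of all tested genes did at day 10 and 10.8% at day 17. The log2 fold change was below 0 for 34 members at day 10, against 47.2% of all tested genes, and for 35 at day 17, against 51.0%. The libraries were without overlap at both days for 25 members. The comparisons at the 2 days share no library, though the filter, scaling and spread were set over all 16 libraries. The 27 members called lower at day 10 were all called lower at day 17 as well, and Oas1a, Isg15, Ifih1, Ifi27l2a and Ifi35 were called at day 17 alone. Oasl2, Eif2ak2 and Zbp1 were called at neither day. Some calls rested on single libraries, and not only those of small size. Without replicate 3 of vehicle at day 10, 19 members were lower at that day, and Samd9l, Usp18, Dtx3l, Parp9, Ddx58, Dhx58, Slfn2 and Slfn5 lost their call. At day 17, leaving out replicate 4 of entinostat left 25 members lower, with the calls of Ifit2, Oas2, Parp9, Parp14, Ifih1, Ddx58 and Ifi35 lost. Oas2 at day 10 was also lost without replicate 3 of entinostat or replicate 1 of vehicle of that day.

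**Figure D1:**
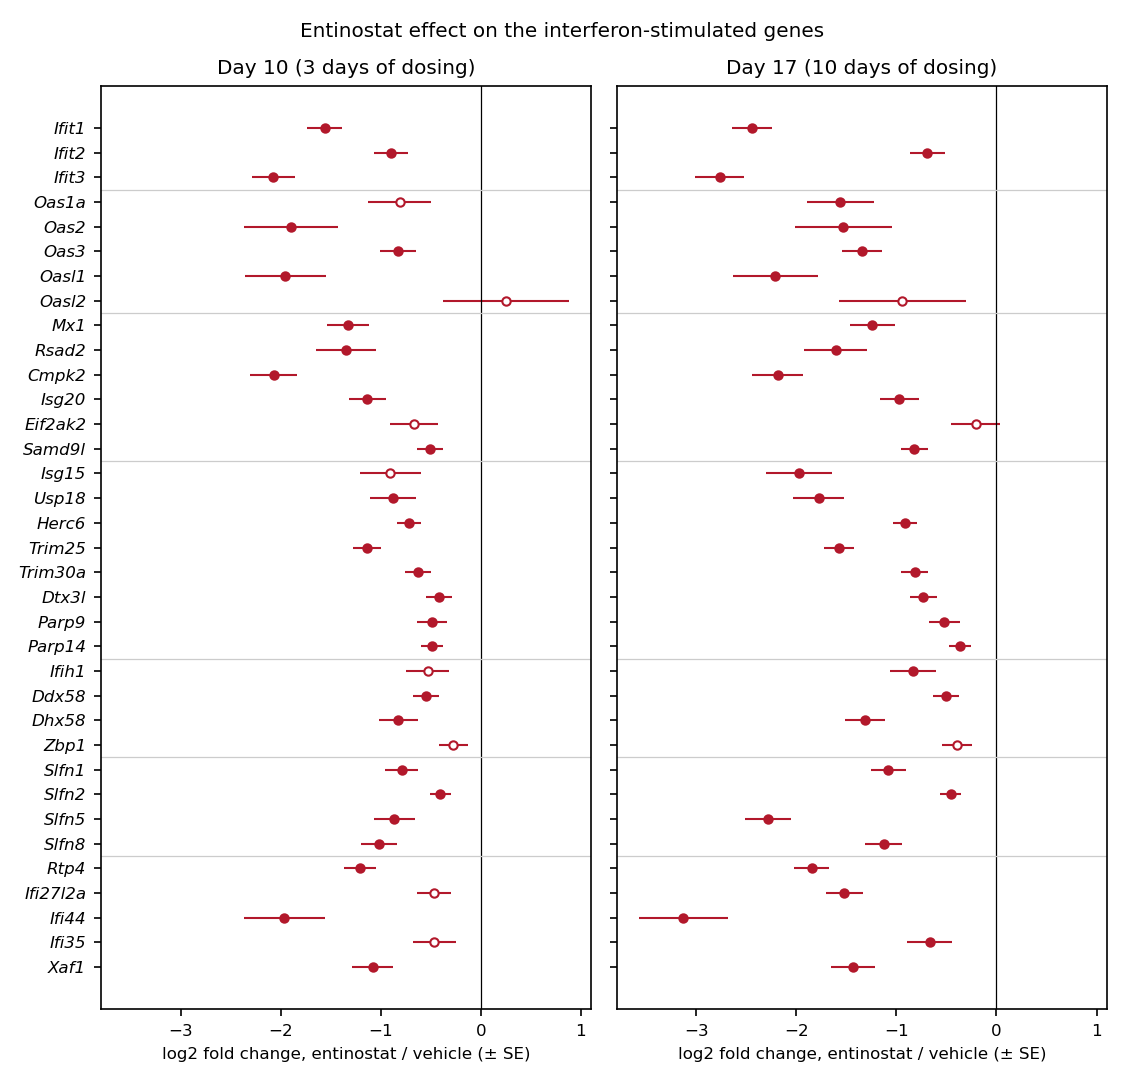
Log2 fold change of entinostat over vehicle (horizontal axis) for each of the 35 members, grouped by role, at day 10 (left) and day 17 (right). Bars are ± SE, filled points passed edgeR's adjusted p of 0.05 and open points did not; points lie left of 0 for 34 members at day 10, Oasl2 being the exception, and for 35 at day 17.

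The summed level of the 35 genes gives the size of the fall in each library. It was 3032, 2944, 2689 and 2933 CPM in the 4 entinostat libraries at day 10, against 4640, 4720, 6180 and 3955 CPM in the vehicle libraries. At day 17 it was 1996, 1997, 1800 and 1711 CPM in the entinostat libraries, against 3818, 3821, 3888 and 3596 CPM in the vehicle libraries. The groups did not overlap at either day, and the vehicle libraries of day 10 were the most spread. In that group replicate 3 was the highest library for 33 of the 35 members and replicate 4 the lowest for 29.

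**Figure D2:**
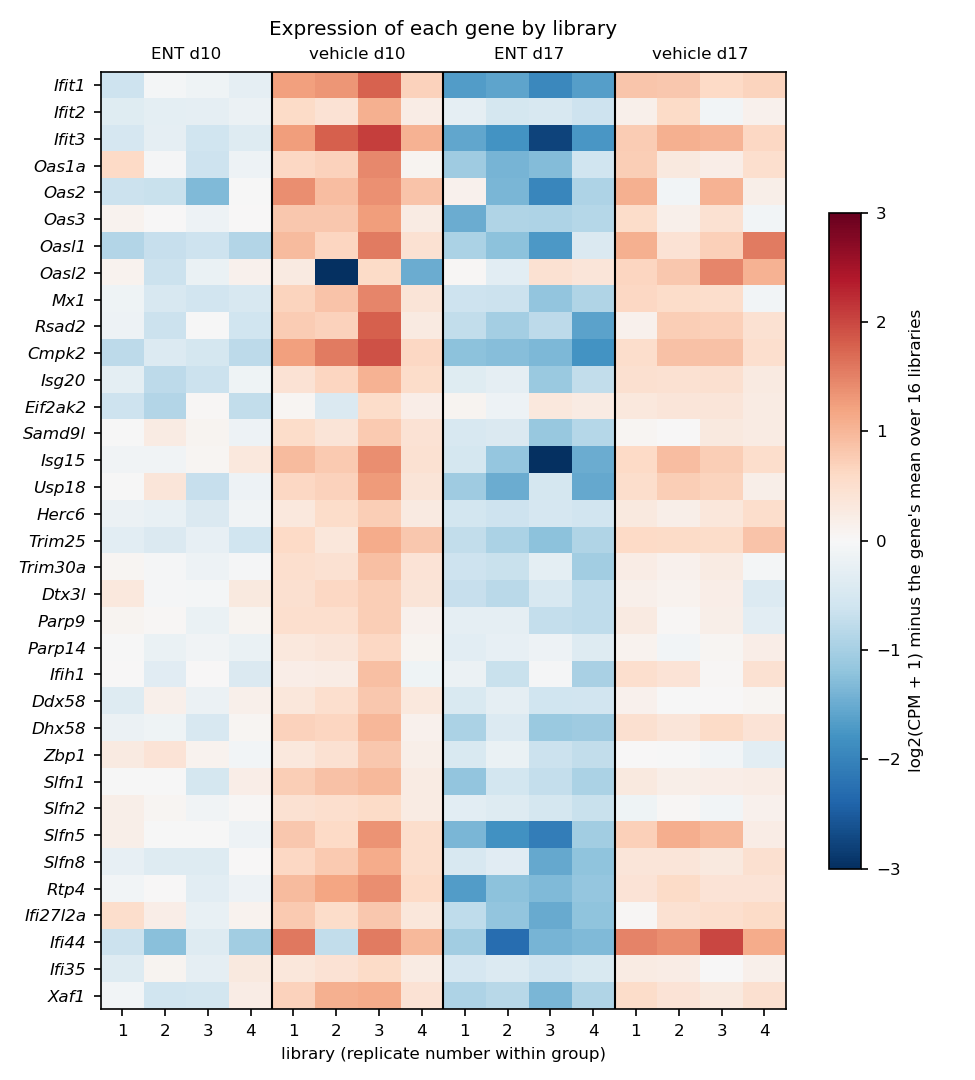
Level of each member (rows, by role) in each of the 16 libraries (columns), as log2(CPM + 1) minus the member's mean over all libraries; the colour scale ends at -3 and 3. The entinostat columns of day 17 are mostly blue and the vehicle columns of day 10 mostly red, deepest in replicate 3 of that vehicle group.

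The IFIT genes encode cytoplasmic proteins that bind viral RNA and restrain its translation, and lie side by side on chromosome 19. All 3 were lower at both days. Ifit3, which binds and stabilises IFIT1 in humans, had 27.9, 32.7, 25.9 and 30.0 CPM in the entinostat libraries of day 10, against 96.6, 141, 172 and 83.1 CPM in the vehicle libraries. At day 17 it had 12.9, 10.8, 4.98 and 11.2 CPM with entinostat, against 68.8, 84.4, 81.8 and 61.7 CPM with vehicle. The lowest vehicle library stood far above the highest entinostat library at both days. The log2 fold change was -2.08 ± 0.21 (SE) at day 10 and -2.77 ± 0.24 at day 17, or 4.21 and 6.81 times lower, with edgeR adjusted p of 3.85e-05 and 9.48e-07. In the annotation (GENCODE vM21, GRCm38), 51.2% of the 50-base words of Ifit3 occur in its near copy Ifit3b, so the counts of the pair may not be separate. Ifit3b was itself lower, by log2 fold changes of -1.92 at day 10 and -2.44 at day 17.

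Ifit1, which recognises viral RNA whose cap lacks a methyl group, had 42.8, 63.3, 60.7 and 54.9 CPM with entinostat at day 10, against 156, 166, 228 and 107 CPM with vehicle. The day 17 libraries had 19.9, 21.5, 16.6 and 20.4 CPM with entinostat, against 117, 116, 99.9 and 105 CPM with vehicle. The groups were far apart, and within the day 17 groups the libraries lay close together. Its log2 fold change was -1.56 ± 0.18 at day 10 and -2.44 ± 0.20 at day 17. Ifit2, the third gene of the cluster, differed less: 57.9 ± 3.16 CPM with entinostat against 108 ± 28.8 CPM with vehicle at day 10, and 50.3 ± 5.6 against 81.4 ± 16.2 CPM at day 17 (SD, n = 4 each). Its log2 fold changes were -0.89 and -0.69, the smaller of them at day 17, where the other 2 IFIT genes had their larger ones.

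The OAS enzymes make short oligoadenylates that activate RNase L, which cleaves RNA. Of the 5 genes of this family, 3 were lower at day 10 and 4 at day 17. Oas3, the largest of the synthetases, had 116, 109, 98.4 and 110 CPM with entinostat at day 10, against 189, 192, 261 and 130 CPM with vehicle. By day 17 the level was 37.9, 57.9, 56.4 and 59.4 CPM with entinostat, against 161, 120, 148 and 103 CPM with vehicle. No entinostat library reached the lowest vehicle library of the same day. The log2 fold change was -0.83 ± 0.18 at day 10 and -1.35 ± 0.20 at day 17 (edgeR adjusted p 0.0094 and 0.000134).

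Oasl1, a relative without synthetase activity that in mice restrains the translation of Irf7 mRNA, had low levels throughout. It had 3.72, 4.38, 4.63 and 3.75 CPM with entinostat at day 10, against 15.9, 12.7, 24.6 and 11.0 CPM with vehicle. On day 17 the values were 3.54, 2.69, 1.66 and 5.43 CPM with entinostat, against 17.3, 10.9, 13.4 and 24.7 CPM with vehicle. The entinostat libraries lay below every vehicle library, on 10 to 21 counts per library at day 10 and 1 to 16 at day 17. The fold changes of -1.95 ± 0.41 and -2.21 ± 0.43 therefore carry a wide error. Oas2 averaged 5.80 ± 2.49 CPM with entinostat against 21.8 ± 4.51 CPM with vehicle at day 10, a log2 fold change of -1.89 ± 0.47, and -1.53 ± 0.48 at day 17, where the groups overlapped and the call was lost in 13 of 26 alternative settings.

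Oas1a, 57.6% of whose sequence words occur in Oas1g or Oas1b, missed the threshold at day 10 (log2 fold change -0.81 ± 0.32, edgeR adjusted p 0.0857) and was lower at day 17 (-1.56 ± 0.34). Oasl2 went its own way in the vehicle libraries of day 10. It had 11.5, 6.44, 9.25 and 11.8 CPM with entinostat at that day, against 13.1, 0.259, 16.4 and 3.14 CPM with vehicle. The vehicle libraries ran from 1 to 56 counts and enclosed all 4 entinostat libraries, and the fold change was 0.25 with a 95% interval of -1.12 to 1.63. At day 17 Oasl2 had 10.9, 8.35, 14.9 and 13.9 CPM with entinostat, against 17.2, 19.6, 31.1 and 23.0 CPM with vehicle. Those groups did not overlap, yet the log2 fold change of -0.94 ± 0.64 missed the threshold (edgeR adjusted p 0.313).

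Among the 6 other antiviral effectors, 5 were lower at each day. Cmpk2, a mitochondrial nucleotide kinase, and Rsad2, whose product viperin makes a chain-terminating nucleotide from the product of CMPK2, start 12664 bases apart on chromosome 12 and run in opposite directions. Cmpk2 had 20.1, 26.3, 24.4 and 20.0 CPM with entinostat at day 10, against 84.3, 107, 136 and 54.6 CPM with vehicle. Day 17 gave 14.5, 14, 13.3 and 9.50 CPM with entinostat, against 51.0, 65.4, 66.1 and 50.8 CPM with vehicle. Here too the groups were separate, by log2 fold changes of -2.07 ± 0.24 at day 10 and -2.19 ± 0.25 at day 17 (edgeR adjusted p 7e-05 and 1.42e-05). Rsad2 was lower by -1.35 ± 0.30 and -1.61 ± 0.32, without overlap at either day.

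Mx1, a GTPase that blocks influenza virus and is defective in BALB/c mice, still gave a transcript count: 40.3 ± 5.68 CPM with entinostat against 101 ± 34.6 CPM with vehicle at day 10, and 30.1 ± 5.35 against 73.1 ± 15.1 CPM at day 17 (SD, n = 4 each). Its log2 fold changes were -1.33 and -1.24. Isg20, an RNA exonuclease, was lower by -1.13 ± 0.19 at day 10 and -0.97 ± 0.19 at day 17. Samd9l, an antiviral restriction factor that slows translation and growth, was lower by -0.51 ± 0.13 and -0.82 ± 0.14, and missed the threshold at day 10 with replicates paired within each day (edgeR adjusted p 0.0573). Eif2ak2, which encodes PKR, the kinase that halts translation when it binds double-stranded RNA, did not pass the test. It had 19.3, 16, 31.1 and 17.9 CPM with entinostat at day 10, against 31.5, 22.3, 44.9 and 35 CPM with vehicle, with overlap. At day 17 it had 32.2, 27.2, 38.2 and 36.0 CPM with entinostat, against 37.9, 38.9, 39.1 and 36.4 CPM with vehicle, which also overlapped. The log2 fold change was -0.67 with a 95% interval of -1.20 to -0.14 at day 10 and -0.21 with an interval of -0.74 to 0.33 at day 17.

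**Figure D3:**
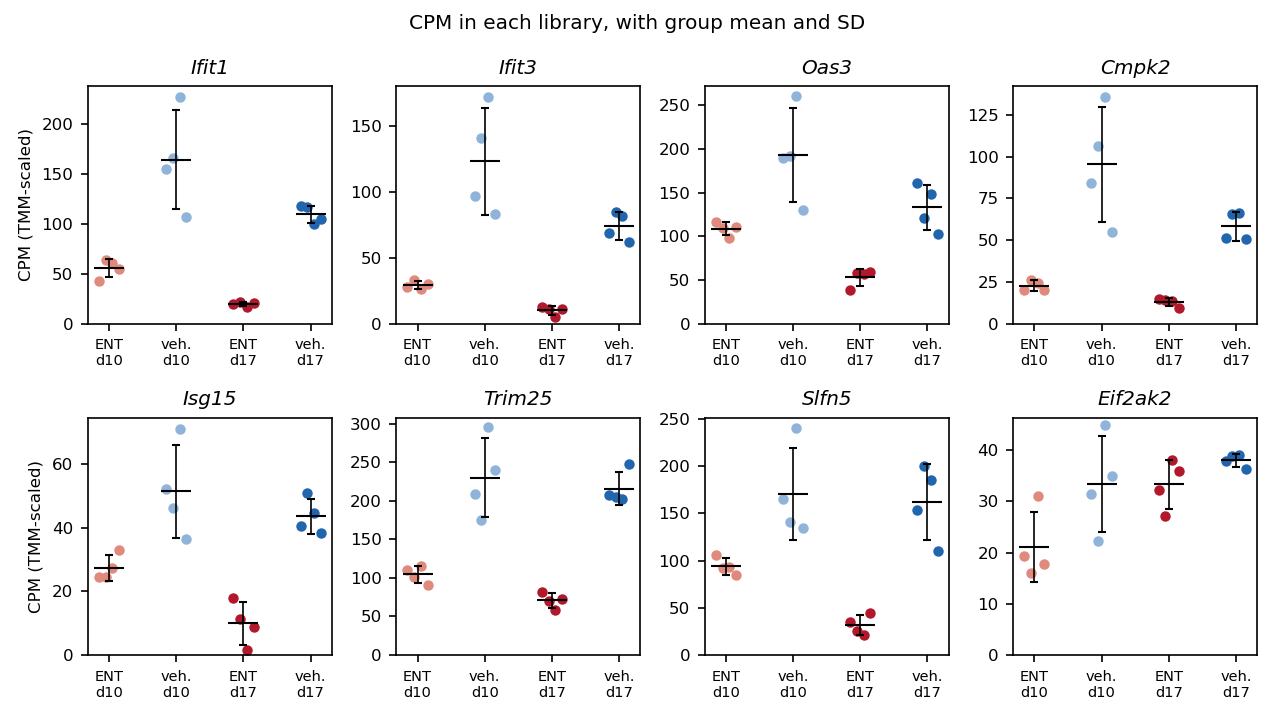
CPM in each library for 8 members, 1 panel each, with the 4 groups side by side; points are libraries, and the lines are the group mean and SD. The entinostat points lie under all vehicle points of the same day for Ifit1, Ifit3, Oas3, Cmpk2, Isg15, Trim25 and Slfn5. For Eif2ak2 the highest entinostat point of each day lies among the vehicle points, and the others lie under them.

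Of the 8 genes of the ISG15, ubiquitin and ADP-ribose systems, 7 were lower at day 10 and all 8 at day 17. Trim25, a ubiquitin ligase that activates the RNA sensor RIG-I, had 110, 102, 115 and 90.4 CPM with entinostat at day 10, against 209, 175, 296 and 240 CPM with vehicle. The day 17 libraries had 82.3, 70.5, 58.1 and 72.6 CPM with entinostat, against 208, 204, 202 and 248 CPM with vehicle. The groups stood apart at both days, by -1.14 ± 0.14 and -1.57 ± 0.15 on the log2 scale (edgeR adjusted p 0.00014 and 1.75e-06). In the vehicle libraries the log2 fold change of Trim25 at day 17 over day 10 was -0.09 ± 0.14, which did not pass.

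Isg15 encodes the ubiquitin-like modifier that gives the system its name. It had 24.5, 24.5, 27.4 and 33.1 CPM with entinostat at day 10, against 52.2, 46.1, 71.2 and 36.3 CPM with vehicle. By day 17 the level was 18, 11.3, 1.66 and 8.82 CPM with entinostat, against 40.5, 50.8, 44.8 and 38.4 CPM with vehicle. The libraries did not overlap at either day, though the value of 1.66 CPM rests on 1 count in the shallowest library. At day 10 the log2 fold change of -0.91 ± 0.31 fell just short of the threshold (edgeR adjusted p 0.0533), and that of -1.97 ± 0.33 at day 17 passed it. Usp18, which removes ISG15 from proteins and also damps signalling at IFNAR2, was lower by -0.88 ± 0.23 and -1.78 ± 0.25. Herc6, the ligase that attaches ISG15 in mice, was lower by -0.72 ± 0.12 and -0.92 ± 0.12.

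Smaller differences were found for Trim30a, which restrains inflammatory signalling in mice, with -0.63 ± 0.13 at day 10 and -0.82 ± 0.14 at day 17. Parp14, Dtx3l and Parp9 lie together on chromosome 16, where Dtx3l and Parp9 overlap at their starts, and encode an ADP-ribosyltransferase and the 2 partners of a ubiquitin ligase complex. Their log2 fold changes were -0.49, -0.42 and -0.49 at day 10 and -0.36, -0.73 and -0.52 at day 17. These are among the smallest of the members that passed the test, and some of their calls were often lost in the 26 alternative settings. At day 10 Dtx3l was lost in 21, Parp9 in 15 and Parp14 in 1. At day 17 Parp14 was lost in 15, Parp9 in 10 and Dtx3l in 0. With replicates paired within each day, Dtx3l and Parp9 missed the threshold at day 10 (edgeR adjusted p 0.0767 and 0.0574).

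Of the 4 sensors, 2 were lower at day 10 and 3 at day 17. Dhx58, which encodes LGP2, a regulator of the other RNA sensors, had 42, 43.2, 33.9 and 49.3 CPM with entinostat at day 10, against 77.0, 74.7, 95.6 and 51.8 CPM with vehicle. On day 17 the values were 24.1, 35.5, 21.6 and 22.4 CPM with entinostat, against 66.9, 61.9, 71.3 and 63.1 CPM with vehicle. The gap between the groups was narrow at day 10 and wide at day 17, with log2 fold changes of -0.82 ± 0.19 and -1.31 ± 0.20. With replicates paired within each day, the day 10 value was -0.80 and missed the threshold (edgeR adjusted p 0.0502). Ddx58, which encodes RIG-I, was lower by about the same amount at both days, -0.54 ± 0.13 and -0.51 ± 0.13. Ifih1, which encodes MDA5, the sensor of long double-stranded RNA, had -0.53 ± 0.22 at day 10, which did not pass, and was lower by -0.84 ± 0.23 at day 17. Zbp1, a sensor of Z-form nucleic acid that can trigger necroptosis, averaged 176 ± 25.6 CPM with entinostat against 213 ± 41.4 CPM with vehicle at day 10, and 109 ± 19.1 against 145 ± 14.3 CPM at day 17 (SD, n = 4 each). Its groups overlapped at both days and neither difference passed the test.

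The Schlafen genes lie together on chromosome 11, and all 4 were lower at both days. Slfn5, whose human counterpart restricts herpes simplex virus transcription, had 106, 92.2, 92.8 and 84.2 CPM with entinostat at day 10, against 165, 141, 240 and 135 CPM with vehicle. Day 17 gave 35.4, 25.8, 21.6 and 44.8 CPM with entinostat, against 153, 200, 185 and 110 CPM with vehicle. The vehicle libraries of the 2 days overlapped, and the entinostat libraries of day 17 lay far below those of day 10. The log2 fold change was -0.86 ± 0.21 at day 10 and -2.28 ± 0.23 at day 17. A part of Slfn5 exons (8.84%) is overlapped by an antisense gene, and the kit does not mark strand.

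Slfn8, expressed in T cells, had 114, 105, 105 and 138 CPM with entinostat at day 10, against 211, 234, 294 and 196 CPM with vehicle. At day 17 it had 96.8, 107, 46.4 and 58.3 CPM with entinostat, against 174, 176, 168 and 191 CPM with vehicle. No entinostat library reached a vehicle library, and the entinostat libraries of day 17 fell into a higher and a lower pair. Its log2 fold changes were -1.02 ± 0.18 and -1.13 ± 0.19, and 14.6% of its sequence words are shared with Slfn9 or Slfn10-ps. Slfn1 was lower by -0.79 ± 0.17 and -1.08 ± 0.18. Slfn2, which keeps mouse T cells quiescent, differed least of the 4, by -0.40 ± 0.10 and -0.46 ± 0.10, and missed the threshold at day 10 with replicates paired within each day (edgeR adjusted p 0.0549).

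Of the 5 other induced genes, 3 were lower at day 10 and 5 at day 17. Rtp4, which binds RNA of flaviviruses in mammals and helps receptors reach the cell surface, had 49.1, 52.3, 41.6 and 46.3 CPM with entinostat at day 10, against 101, 119, 137 and 78.7 CPM with vehicle. The day 17 libraries had 15.4, 21.3, 19.9 and 22.4 CPM with entinostat, against 68.9, 77.0, 69.0 and 69.3 CPM with vehicle. Every entinostat library was well below the lowest vehicle library, and the log2 fold changes were -1.20 ± 0.16 and -1.85 ± 0.18 (edgeR adjusted p 0.000264 and 1.83e-06).

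Ifi44, a cytoplasmic protein that restrains virus replication, had the largest fall of all members at day 17. It had 14.5, 9.27, 17.6 and 10.9 CPM with entinostat at day 10, against 71.8, 13.7, 70.7 and 47.1 CPM with vehicle. By day 17 the level was 10.9, 4.04, 8.29 and 8.82 CPM with entinostat, against 67.1, 62.7, 96.5 and 51.8 CPM with vehicle. At day 10 replicate 2 of vehicle lay within the entinostat range, and at day 17 the groups were far apart. The log2 fold change was -1.97 ± 0.40 at day 10 and -3.13 ± 0.44 at day 17, or 3.91 and 8.76 times lower. Xaf1, which promotes cell death by opposing XIAP, was lower by -1.08 ± 0.20 and -1.43 ± 0.22. Ifi27l2a, a small mitochondrial protein, had -0.47 ± 0.17 at day 10, which did not pass, and was lower by -1.52 ± 0.19 at day 17. Ifi35 had -0.46 ± 0.22 at day 10, likewise short of the threshold, and -0.67 ± 0.23 at day 17, where its call (edgeR adjusted p 0.0474) was lost in 22 of 26 alternative settings. An antisense gene overlaps 16.8% of its exons.

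Levels can be set between members only per length of transcript. Divided by the length of all annotated exons, Ifi27l2a had the highest level in the vehicle libraries of day 10, with 261 CPM per kilobase, followed by Slfn2 with 207 and Slfn1 with 97.9. The lowest were Oasl2 with 1.29, Oas2 with 4.91 and Oasl1 with 6.15 CPM per kilobase. Ifi27l2a fell to 75.3 CPM per kilobase in the entinostat libraries of day 17, against 224 in the vehicle libraries, while Slfn2 had 110 against 151. Ifit3 had 16.7 CPM per kilobase in the entinostat libraries of day 10, rank 18 of 35, against 70.6 and rank 4 in the vehicle libraries.

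Whether the difference between entinostat and vehicle itself changed with time was tested as an interaction. It was more negative at day 17 for 28 of the 35 members, against 64.5% of all tested genes, and 1 member passed the test, where 0.253% of all tested genes were called in that direction. This was Slfn5, with a change in the log2 difference of -1.42 ± 0.30 (edgeR adjusted p 0.0455). The median change over the members was -0.29, against -0.20 over all tested genes and -0.10 over the 9772 genes of at least 16 CPM. Ifi27l2a had the next smallest p, at -1.05 ± 0.25 with an edgeR adjusted p of 0.0733, and the call of Slfn5 was lost in 15 of 25 alternative settings. The 5 members called at day 17 alone did not pass this test, so their effects were not shown to differ between the days.

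Time itself was compared within each treatment, and these comparisons share their libraries with those above. With entinostat, 20 of 35 members were lower at day 17 than at day 10, where 10.5% of all tested genes were lower, and none was higher, where 3.26% were. The median log2 fold change of the members was -0.67, against 0.03 over all tested genes and -0.16 over the 9772 genes of at least 16 CPM. The libraries of the 2 days did not overlap, with day 17 lower, for 21 members (12.5% of all tested genes). The log2 fold change was below 0 for 33 members, against 48.0% of all tested genes. No member lay without overlap above its day 10 libraries, as 8.94% of genes did. Slfn5 fell by 1.49 ± 0.23 on the log2 scale, Ifit1 by 1.46 ± 0.20 and Ifit3 by 1.42 ± 0.24. At an unadjusted p under 0.05, Eif2ak2 alone was higher, at 0.65 ± 0.25.

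With vehicle, 6 of 35 members were lower at day 17 than at day 10, where 3.63% of all tested genes were lower. They were Ifit3, Dtx3l, Ddx58, Zbp1, Slfn2 and Rtp4, with log2 fold changes from -0.73 for Ifit3 to -0.45 for Slfn2 and Ddx58. The median of the members was -0.40, against 0.13 over all tested genes and -0.10 over the 9772 genes of at least 16 CPM. Of the 35 members, 30 were below 0, against 41.4% of genes. The libraries of the 2 days did not overlap, with day 17 lower, for 9 members (8.77% of all tested genes). No member was higher by edgeR's adjusted p, where 1.89% of all tested genes were. Oasl2, at 1.47 ± 0.63, was the 1 member higher at an unadjusted p under 0.05 and the 1 whose vehicle libraries of day 17 all exceeded those of day 10 (4.78% of all tested genes), and limma-voom called it higher. The vehicle calls depended on which libraries were kept. Without replicate 2 or replicate 3 of vehicle at day 10, 0 members were called lower, and without replicate 4 of that group there were 14. There were 11 without replicate 1 of vehicle at day 17 or replicate 4 of entinostat at day 10, and 2 without replicate 2, 3 or 4 of vehicle at day 17.

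The genes of the interferon pathway were read from a list of 19, of which 15 had enough counts to be tested. At day 10, 4 were lower with entinostat and 1 was higher, and at day 17, 7 were lower and 1 was higher. Irf7, the interferon-induced factor that drives interferon genes, had 145, 157, 120 and 151 CPM with entinostat at day 10, against 279, 226, 302 and 190 CPM with vehicle. On day 17 the values were 79.1, 88.3, 58.1 and 56.0 CPM with entinostat, against 210, 232, 244 and 257 CPM with vehicle. Irf7 was lower at both days, by -0.80 ± 0.15 and -1.71 ± 0.16, with no overlap at either day. Stat2 was lower by -0.55 ± 0.16 and -1.17 ± 0.16, Irf9 by -0.41 ± 0.13 and -0.69 ± 0.14, and Ifnar2 by -0.52 ± 0.12 and -0.98 ± 0.12. Ifnar1, Tyk2 and Ifngr2 were lower at day 17, by -0.58 ± 0.12, -0.60 ± 0.17 and -1.34 ± 0.21.

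Irf1, a gene induced by interferon gamma, had log2 fold changes of 0.03 ± 0.10 at day 10 and 0.11 ± 0.11 at day 17, neither of which passed the test. Ifng, which encodes interferon gamma, was higher with entinostat at day 17 by 1.23 ± 0.20, with 253, 288, 234 and 123 CPM, against 102, 79.4, 107 and 92.2 CPM with vehicle. Ifnb1, which encodes interferon beta, was called higher at day 10, by 3.88 ± 1.20 (edgeR adjusted p 0.0399). It had 7.06, 2.57, 9.25 and 0 CPM with entinostat, against 0.611, 0, 0.293 and 0.261 CPM with vehicle, which overlap at 0. The summed receptor counts described below were 5722, 3365, 5175 and 586 CPM (without TMM factors) in those entinostat libraries, against 582 to 1863 CPM with vehicle. They were lowest, among those entinostat libraries, in the one where Ifnb1 was at 0. Their part in the value of Ifnb1 was not tested. Ifna1, Ifna2, Ifna4 and Ifna5 had too few counts to be tested.

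**Figure D4:**
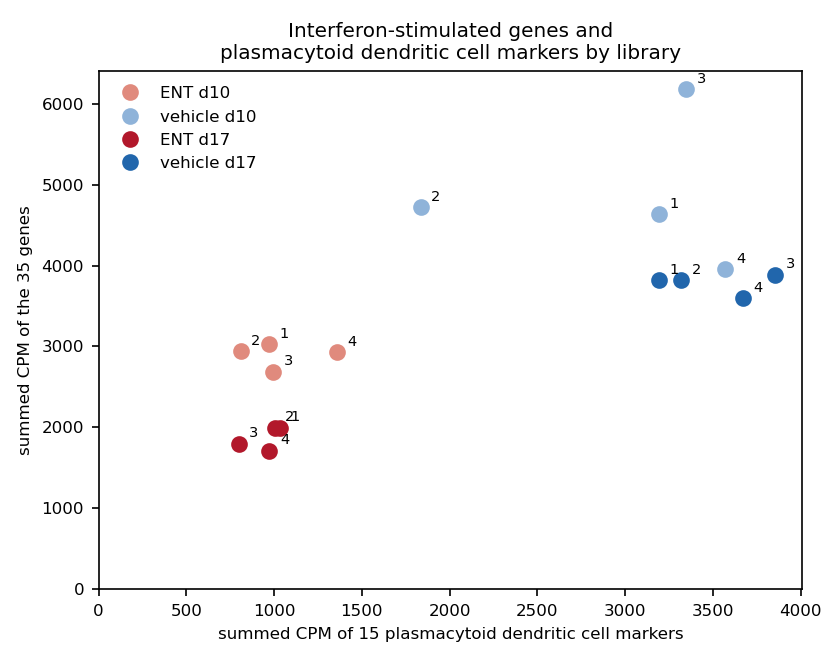
Summed CPM of the 35 members (vertical axis) against summed CPM of 15 marker genes of plasmacytoid dendritic cells (horizontal axis), 1 point per library, coloured by group and numbered by replicate. The entinostat libraries lie at 798 to 1360 CPM of marker genes and the vehicle libraries at 1835 to 3856 CPM, and within each treatment the day 17 points lie below those of day 10 on the vertical axis.

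Some marker genes of other cells moved with the members. Of 15 marker genes of plasmacytoid dendritic cells, 14 were lower with entinostat at day 10 and 14 at day 17, with median log2 fold changes of -1.91 and -2.81. Their summed level was 809 to 1360 CPM with entinostat at day 10, against 1835 to 3572 CPM with vehicle. At day 17 it was 798 to 1035 CPM with entinostat, against 3196 to 3856 CPM with vehicle. Irf8 and Runx2 made 370 and 195 CPM of the mean sum of 952 CPM with entinostat at day 17. With vehicle at that day they made 563 and 347 of 3511 CPM. Siglech, a receptor that defines these cells in mice, averaged 70.3 ± 28.2 CPM with entinostat against 378 ± 108 CPM with vehicle at day 10, and 45.8 ± 19.3 against 446 ± 58.6 CPM at day 17 (SD, n = 4 each). No marker of the list was at 0 in all libraries of a group, and their part in the fall of the members was not tested.

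The 2 sets did not move alike in every comparison. With vehicle, 14 of the 15 plasmacytoid dendritic cell markers were above 0 at day 17 against day 10, with a median of 0.24 and none called even at an unadjusted p under 0.05, while 30 of 35 members were below 0. With entinostat, 13 of the 15 markers were below 0 at day 17 against day 10, with 5 called lower and 1 higher. Their median log2 fold change was -0.55, beside -0.67 over the members. The mean summed level of these markers was 952 ± 106 CPM at day 17 against 1035 ± 232 CPM at day 10. That of the members was 1876 ± 144 against 2900 ± 147 CPM. Within the marker sum, Irf8 rose from 216 ± 25.4 CPM at day 10 to 370 ± 67.3 CPM at day 17 (SD, n = 4 each). Among the vehicle libraries of day 10, replicate 2 had the lowest marker sum, 1835 CPM, beside a member sum of 4720 CPM, and replicate 4 had the highest marker sum, 3572 CPM, beside the lowest member sum, 3955 CPM. Like the markers, 5 members were lowest in replicate 2, namely Ifi44, Oasl2, Eif2ak2, Samd9l and Trim25.

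Of 7 tested markers of macrophages and monocytes, 4 were lower at each day and 1 was higher at day 10, with summed levels of all 9 of 154 to 197 CPM with entinostat against 359 to 749 CPM with vehicle at day 10, and 104 to 150 against 629 to 839 CPM at day 17. Of 9 markers of other dendritic cells, 3 were lower at day 10 and 5 at day 17. Cd4, a gene the sort selected against, was lower by -1.66 ± 0.30 and -2.75 ± 0.33. The lists for B cells (4 genes), NK cells (3) and tumour or stroma (4 tested) held at most 1 gene called in either direction at a day. Counts of odorant and pheromone receptor genes (symbols starting with Olfr or Vmn), not expected in a T cell, summed to 586 to 5722 CPM with entinostat against 582 to 1863 CPM with vehicle at day 10, and 3628 to 6901 against 636 to 5290 CPM at day 17. These receptor sums are CPM without TMM factors. With the log2 of this sum as a covariate, 26 members were lower at day 10 and 29 at day 17.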

How the data were processed

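Per the labels, sorted CD8 T cell RNA was made into cDNA with the SMART-seq v4 kit and into libraries with Nextera XT. The authors' deposited values are whole-number counts per gene, not scaled between libraries. Per the submitters' processing notes, STAR and mm10 were used. Which program and annotation made the counts, and whether duplicates were removed, is not given in the sources used here, so PCR copies may be counted. Precision follows total counts, 554593 to 6975904 per library.

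CPM, TMM factors and tests were computed here from those counts with R 4.3.3 and edgeR 4.0.16: filterByExpr at its minimum count of 10, which kept 17414 genes, a quasi-likelihood fit over all 16 libraries with a mean per group (12 residual degrees of freedom, common BCV 0.380), and Benjamini-Hochberg adjustment over all tested genes of a comparison at 0.05. Errors are SE for log2 fold changes and SD for CPM. The script was tested on simulated data. Members, marker lists and tests were chosen with earlier results of these data known. All members are named, with full values for the smallest p of each role at either day; Oasl2, Isg15, Ifi44 and Eif2ak2 were added after their values were seen.

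Equal replicate numbers may pair entinostat and vehicle libraries at day 10, judged from the data and not the labels. The main fit used no pairing, and the replicate blocks were alternatives. Over 9772 genes of at least 16 CPM, deviations from the group means correlated by 0.259, 0.260, 0.240 and 0.270 for numbers 1 to 4. In no other comparison were all 4 correlations over 0.1. Entinostat libraries 1, 2 and 4 of day 10 correlated best with the vehicle library of their own number, and library 3 did not. Libraries of a group differed by more than counting noise (lowest chi-square over degrees of freedom 2.96). Alternatives were DESeq2 1.42.0, limma-voom (limma 3.58.1), other scalings, filters and fits, replicate blocks, a covariate of receptor reads, and leaving out each library. Promoter windows (GRCm38.p6) and gene positions (GRCm38) come from RefSeq, and exon lengths from GENCODE vM21 (GRCm38). One gene of the pathway list is not reported here.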

Additional observations from a re-analysis of the deposited data

Results flagged for a closer look

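The values of 5 members lay apart from the other 3 libraries of their group by more than Dixon's limit at 95%. Of 140 groups checked (35 members in 4 groups), chance flags about 1 in 20, or 7, so 5 is no more than that. Oas3 had 37.9 CPM in entinostat day 17 replicate 1, against 56.4 to 59.4 CPM in the others. In vehicle day 17 replicate 4, Mx1 had 50.8 CPM against 78.2 to 83.8, Isg20 had 62.1 CPM against 71.2 to 71.8, and Trim25 had 248 CPM against 202 to 208. Rtp4 had 77.0 CPM in vehicle day 17 replicate 2, against 68.9 to 69.3 CPM in the others.

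The difference between entinostat and vehicle changed between day 17 and day 10 for Slfn5, by -1.42 on the log2 scale in the test of that difference. This call was lost in 15 of 25 alternative settings, among them the replicate block, where the value was -1.39 (edgeR adjusted p 0.0731).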

How the results depend on the processing

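Over 26 alternatives, no called member reversed its direction in any comparison. Between 22 and 32 members were lower with entinostat at day 10 and between 25 and 32 at day 17 where the method, scaling, filter, fit or covariate changed (27 and 32 as reported), and 17 of the 27 and 24 of the 32 were called in every alternative. With one library left out the counts were 19 to 28 at day 10, lowest without vehicle day 10 replicate 3, and 25 to 32 at day 17. With vehicle over time, 6 lower members became 12 with DESeq2, 0 with library size alone, 1 at a minimum count of 50, 0 when fitted on the groups compared, 2 with the receptor covariate and 0 to 14 with one library left out, with medians of -0.52 to -0.21; limma-voom called 1 higher. With entinostat over time, 1 was higher with DESeq2, at a minimum count of 50 and without entinostat day 10 replicate 3 (range 0 to 1). The interaction called 2 members with DESeq2, 0 with no filter, 2 with the receptor covariate and 0 to 1 with one library left out. The causes were not tested.

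With the replicate block, 26 members were lower at day 10, 32 at day 17 and 0 in the interaction, and with the block within each day 22 at day 10 (without Dtx3l, Parp9, Samd9l, Slfn2 and Dhx58) and 29 at day 17. Over all 17414 genes the day 10 correlations by number were 0.180, 0.0329, 0.114 and 0.0572, and number 1 alone matched its own number best. The pairing therefore depends on the genes used.

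Calls over all genes varied more. At day 10, 1206 were lower and 1328 higher as reported, against 504 and 1596 with library size alone, which moved the median of all genes to 0.22, and 3170 and 3576 with limma-voom. At day 17 they were 2268 and 922, against 1456 and 1356 with library size alone and 1913 and 1745 with DESeq2. Counts were lowest in the library of 554593, where Ifit3 had 3 counts and Isg15 1, so levels in it carry the widest counting error.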
